A study of Mus musculus with 25 samples.

Results

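The cytosolic ribosomal protein genes encode the protein parts of the ribosome that translates nuclear messages. The gene set was defined by symbol: Rpl or Rps followed by a number and at most 1 further letter, together with Rplp0, Rplp2 and Rpsa, where a probe set carried that symbol and no other. Of the 18193 genes measured by single-symbol probe sets, 42 met the rule, 20 of the small subunit (Rps, with Rpsa) and 22 of the large subunit (Rpl, with the Rplp genes). A further 27 ribosomal protein symbols occurred only on probe sets that name several genes and were not used here. Where a gene had several probe sets, the brightest on average was used, and 94 probe sets in all represent the 42 genes.

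Whole livers of C57/B6 mice were collected at 14 stages, and the labels name no treatment and no genetic change. Before birth, 12 livers were pooled at E11.5 (E is the day of gestation), 9 each at E12.5 and at E13.5, 6 for E14.5, again 6 for E15.5, then 3 each for E16.5, E17.5 and E18.5. The later livers were from the day of birth and from 3, 7, 14 and 21 days and 18 weeks after birth (the adult liver), with 3 livers in each pool. Each stage was 1 pool, hybridised to 2 arrays at 11 stages and to 1 array at E18.5, day 7 and day 14. The labels describe the arrays of a stage as technical repeats, so the unit of replication was the stage: 8 fetal pools were compared with 6 later pools, and p-values measure the spread between pools of different ages.

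A ribosome is built in the nucleolus and cytoplasm from ribosomal RNA and one copy of most of these proteins, so cells make the proteins in matched amounts. Their messages are among the most abundant in a growing cell, and most carry a run of pyrimidines at the very 5′ end, the TOP motif, through which mTOR signalling and the RNA-binding protein Larp1 control their translation. The fetal liver is a blood-forming organ in which red cell precursors and hepatoblasts divide rapidly, whereas the adult liver consists mainly of hepatocytes that seldom divide.

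The start regions of several members are shown because that pyrimidine run is the feature the family is known for. RefSeq promoters on GRCm38.p6 were matched for 37 of the 42 genes, as 43 promoters. Each line gives 30 bases on the gene's own strand, 5′ to 3′, and the capitals mark the longest run of C or T found from 25 bases before to 50 bases after the annotated start. Rpl35, Rps10, Rps18, Rpl38, Rplp2 and Rps6 have a run of at least 10 bases that lies across the annotated start, and Rpsa and Rps2 are the members with the largest and smallest fall among the brightly measured genes.
Rpl35 (chr2:39005115-39005144, minus strand): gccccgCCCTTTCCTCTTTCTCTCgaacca
Rps10 (chr17:27635227-27635256, minus strand): ccgcgcacgCCCCTTCCTTTCCagcctccg
Rps18 (chr17:33955648-33955677, minus strand): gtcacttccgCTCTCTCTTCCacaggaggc
Rpl38 (chr11:114668568-114668597, plus strand): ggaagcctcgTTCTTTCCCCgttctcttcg
Rplp2 (chr7:141447636-141447665, plus strand): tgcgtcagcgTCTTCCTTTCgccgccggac
Rps6 (chr4:86857349-86857378, minus strand): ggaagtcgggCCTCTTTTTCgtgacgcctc
Rpsa (chr9:120127774-120127803, plus strand): tccggccgcccgTCCTTTCgcgctacccgg
Rps2 (chr17:24720083-24720112, plus strand): aaattgtcccttccgcggcgCCTCCCTCTT

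A run of at least 8 C or T bases on the gene's strand occurred in this window in 29 of the 43 promoters (67.4%), and in 27.2% of all 32851 promoters in the table. Runs of at least 12 occurred in 14 of 43 (32.6%) and in 6.33% of all promoters. The run in Rpl35 was the longest of those shown, with 18 bases from 7 bases before the annotated start. The run in Rpsa had 7 bases and began 21 bases after the annotated start. The run in Rps2 began 41 bases after it and had at least 10 bases, since it reached the end of the window. In the whole promoters (250 bases before to 50 after the start), searched on both strands, CCGGAAG, the core bound by ETS-family factors, was present in 18 of 43 (41.9%) and in 8.86% of all. AAGATGG, the core of the YY1 motif, was present in 7 (16.3%, against 6.34%), and TATAAA in 5 (11.6%, against 13.6%). These matches describe letters in the annotated windows and were not tested for any effect on the levels.

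The levels are log2 array intensities and are compared within a gene across stages. The 42 genes fell into 2 sets by brightness, a split made after the values were seen: 33 genes had a mean log2 intensity of 11.45 or more, and 9 (Rpl12, Rpl14, Rpl27a, Rpl37, Rpl39, Rps6, Rps16, Rps25 and Rps27) had a mean of 8.37 or less. The median of all probe sets on an array lay between 5.41 and 5.53.

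The 33 brightly measured genes declined together through liver development, in an early and a late phase with a plateau around birth. Their median log2 level fell from 12.99 at E11.5 and 12.80 at E12.5 to 12.41 at E13.5, and was 12.61 at E14.5, 12.44 at E15.5, 12.32 at E16.5, 12.27 at E17.5 and 12.63 at E18.5. After birth it was 12.45 on the first day, 12.31 at day 3, 12.32 at day 7, 11.87 at day 14, 11.55 at day 21 and 11.34 in the adult. The highest level was at E11.5 in 31 of the 33 genes and at E12.5 in Rps20 and Rps24. All 33 were lowest at day 21 or in the adult, 29 of them in the adult.

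The course was also described over 3 spans, which were not among the planned comparisons and whose ends follow the levels just given. The first span stops before E18.5, where the median was 12.63. From E11.5 to E17.5 all 33 genes fell in level, with a median change of -0.76 log2 units. From E17.5 to day 7 the median change was 0.12, with 26 genes higher and 7 lower. Day 7, day 14 and E18.5 each have array 1 only, and array 1 usually read higher than array 2. With array 1 of both stages, an alternative added after the values were seen, the median change from E17.5 to day 7 was -0.0035, with 14 genes higher and 19 lower, so no direction is read from this span. From day 7 to the adult all 33 were lower again, with a median change of -0.90, a 1.87-fold difference, and of -1.06 with array 1 alone. In the adult, array 1 was the lower repeat. The median of the 33 genes there was 11.10 on array 1 and 11.57 on array 2, against 12.32 at day 7. The same 3 spans gave medians of 0.02, 0.04 and -0.03 over all 18193 genes. Over 13 widely used reference genes they gave -0.82, 0.36 and -0.58, so the fall from E11.5 to E17.5 was not particular to the ribosomal protein genes. The adult level was below the E11.5 level by a median of 2.85-fold, from 1.91-fold for Rps2 to 5.47-fold for Rpsa. Each gene's 14 stage values followed the mean of the other brightly measured genes, with Pearson's r from 0.898 (Rps2) to 0.990 and a median of 0.968. These genes share the same pools, arrays and scaling, and the correlations are descriptions.

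**Figure D1:**
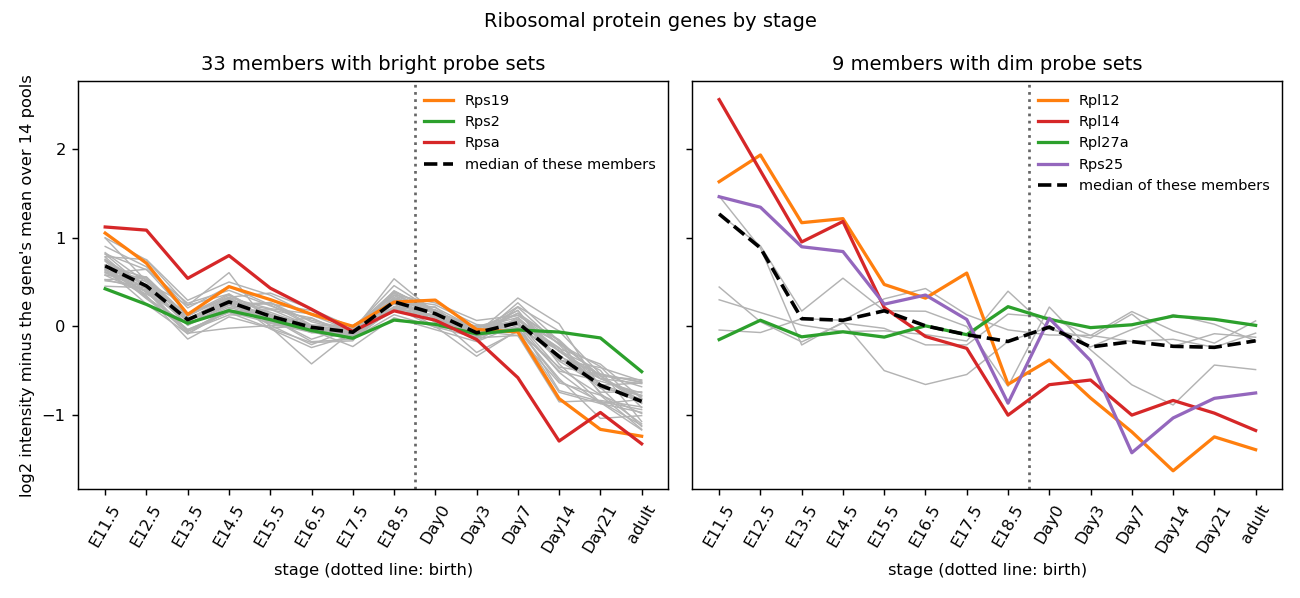
Each line is 1 ribosomal protein gene: the y axis gives its log2 intensity at a stage minus its mean over the 14 pools, and the x axis gives the stages in order. The 33 bright genes in the left panel move together, with Rpsa and Rps19 spanning the widest range and Rps2 the narrowest. The 9 dim genes in the right panel do not share 1 course.

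The step with the largest median change among the brightly measured genes was from E12.5 to E13.5, at -0.44, with all 33 lower. From day 7 to day 14 the median step was -0.42, again with all 33 lower. From E17.5 to E18.5 it was 0.35 (0.23 with array 1 alone), with all 33 higher in both, and from E13.5 to E14.5 it was 0.21, with all 33 higher. E18.5, day 7 and day 14 rest on 1 array each, and the technical repeats at other stages show how far 1 array can differ. The median difference between the repeats over the 42 genes, array 1 minus array 2, ran from -0.31 in the adult to 0.55 on the day of birth, and was positive at 10 of the 11 stages with 2 arrays. At all 11 stages the array with the higher mean intensity over its probe sets gave the higher ribosomal protein levels. The mean of 13 widely used reference genes, called the housekeeping list here, differed between repeats in the same direction at those stages, from -0.21 in the adult to 0.32 on the day of birth. The 0.35 rise at E18.5 and both falls just given are within the largest difference between 2 arrays of 1 pool. The fall from E12.5 to E13.5 was present in both repeats. The median of the brightly measured genes went from 12.93 to 12.55 on array 1 and from 12.74 to 12.28 on array 2. The fall from day 7 to day 14 compares array 1 with array 1. In both falls the housekeeping mean was lower as well. From E12.5 to E13.5 it went from 10.01 to 9.68 on array 1 and from 9.80 to 9.51 on array 2. From day 7 to day 14 it went from 9.65 to 9.28. The mean intensity of the arrays fell too, from 199.6 to 159.8 and from 170.7 to 144.3 in the first fall, and from 205.4 to 166.1 in the second. None of these steps was tested.

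**Figure D2:**
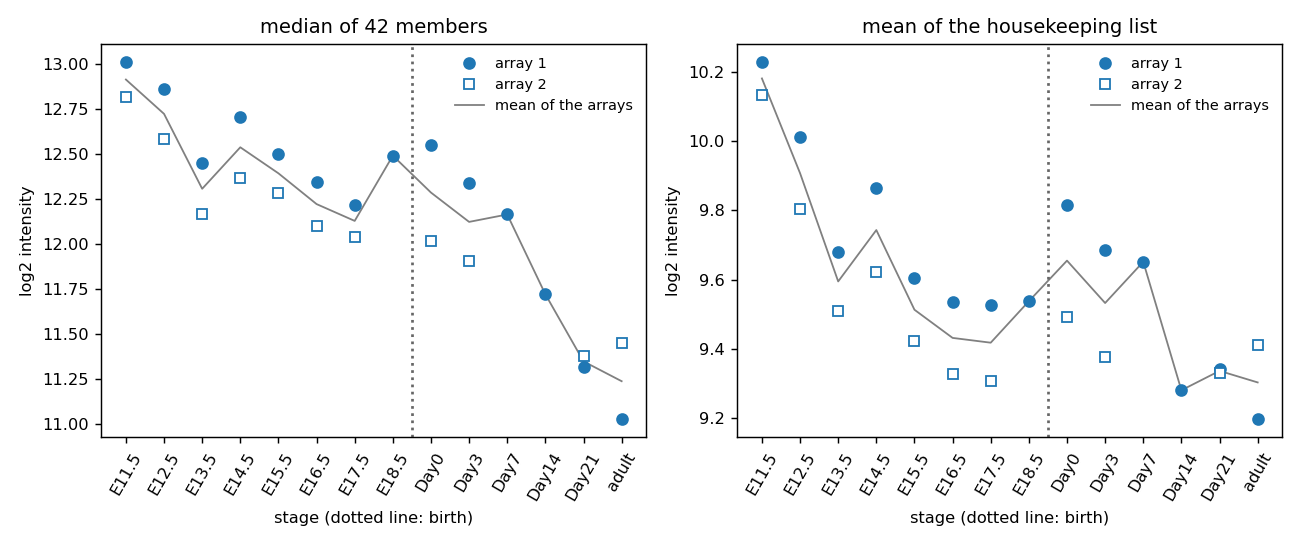
Each point is 1 array: the left panel gives the median log2 intensity of the 42 ribosomal protein genes and the right panel the mean of the 13 reference genes, by stage, with filled circles for array 1 and open squares for array 2. The ribosomal protein median falls from 12.90 at E11.5 to 11.25 in the adult in the stage means, while the reference genes also fall, from 10.18 to 9.30.

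Across all stages, 39 of the 42 genes varied with stage beyond the scatter of the pools around a smooth curve (limma moderated F test on a 3-df natural spline over the stage order, p adjusted by Benjamini and Hochberg's method across the 18193 genes, threshold 0.05). The background was high, with 47% of all genes called by the same rule. With a fitted range of at least 1 log2 unit as well, 37 of the 42 genes and 29.8% of all genes were called. The 3 genes not called were Rpl27a, Rpl39 and Rps27, all dimly measured. All 39 calls held when any 1 pool was left out. The fitted range was widest for Rpl14 (3.55 log2 units), Rpl12 (3.29), Rpsa (2.60) and Rps19 (2.39). Rpl14 and Rpl12 read 4.88 and 5.21 in the adult, below the median of the arrays, so the size of all their changes and their rank are uncertain. The fitted range was narrowest for Rpl27a (0.15) and, of the genes called, for Rps16 (0.43).

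The comparison of the 8 fetal with the 6 later pools asks which members were higher before birth. With limma, 21 of the 42 genes were higher in the fetal pools at an adjusted p under 0.05, and none was lower; at unadjusted p under 0.05, 34 were higher and 0 lower. Over all genes 9.82% were called higher and 10.5% lower. The median difference was 0.52 log2 units, with 41 of 42 genes above 0, against -0.01 over all genes. A difference of at least 1 log2 unit was called in 4 members (Rpl12, Rpl14, Rps25 and Rpsa), against 4.5% of all genes, and in no member the other way, against 5.01%. Because the levels decline within each period as well, the fetal and later pools overlapped in 41 of the 42 genes. Only for Rps16, a dimly measured gene, did every fetal pool lie above every later one, a pattern found in 1.58% of all genes. Its probe set read 4.24 to 4.90 at every stage, below the median of the arrays, so nothing here shows that it was above background. For no member did every fetal pool lie below every later one, as in 2.52% of all genes.

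Rpsa, a small-subunit protein also known as the laminin receptor, moved most among the brightly measured genes. Its log2 level was 12.07 to 13.25 in the fetal pools, with a median of 12.61, and 10.80 to 12.20 in the later pools, with a median of 11.35. Only the lowest fetal pool, E17.5 at 12.07, lay below the highest later pool, the day of birth at 12.20. The difference was 1.25 ± 0.26 log2 units (SE, 8 and 6 pools; adjusted p = 0.00509, limma), a 2.37-fold difference. After birth Rpsa read 12.20, 11.98, 11.55, 10.83, 11.15 and 10.80 in stage order. The 2 adult arrays read 10.77 and 10.83, and the 2 arrays at E11.5 read 13.32 and 13.18. Its second probe set had a mean of 4.50 and a difference of 0.01.

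Rps19, which is needed to mature the small subunit's RNA and is the gene most often mutated in Diamond-Blackfan anaemia, ranged from 11.60 to 12.66 in the fetal pools (median 11.89). In the later pools it ranged from 10.36 to 11.90 (median 11.16), so only the day of birth, at 11.90, lay within the fetal range. The difference was 0.89 ± 0.25 (adjusted p = 0.0249, limma), and the call was lost without day 14, day 21 or the adult. From E11.5 to the adult its level differed 4.91-fold.

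The other brightly measured small-subunit genes showed smaller differences. Rps2, a protein near the messenger entry channel, was the steadiest of the brightly measured genes. It ranged from 12.53 to 13.09 in the fetal pools (median 12.74) and from 12.15 to 12.68 in the later pools (median 12.59), and the groups overlapped. Its difference was 0.24 ± 0.10 (adjusted p = 0.0983). Rps4x, encoded on the X chromosome, differed by 0.42 ± 0.16 (adjusted p = 0.0894), and Rps14, whose human counterpart is lost in 5q- syndrome, by 0.40 ± 0.15 (adjusted p = 0.084). Neither passed the threshold. Of the 20 small-subunit genes 8 were called higher, and the 16 brightly measured ones had a median difference of 0.48.

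Of the 22 large-subunit genes 13 were called higher, and the 17 brightly measured ones had a median of 0.52. Rpl22, a protein that is dispensable for most translation but needed for T cell development, ranged from 12.05 to 12.90 in the fetal pools (median 12.43) and from 11.14 to 12.11 in the later pools (median 11.57). Only E17.5 among the fetal pools lay within the later range. The difference was 0.87 ± 0.18 (adjusted p = 0.00532, limma). Its paralog Rpl22l1, which is not a member, read 11.72 at E11.5 and 9.50 in the adult, with a difference of 0.70 ± 0.29 (adjusted p = 0.11).

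The stalk proteins recruit the elongation factors to the ribosome. Rplp0, the base of the stalk, ranged from 12.33 to 13.09 in the fetal pools (median 12.66) and from 11.30 to 12.55 in the later pools (median 12.03). The groups overlapped, and the difference was 0.73 ± 0.20 (adjusted p = 0.0199). Rplp2 ranged from 11.63 to 13.05 (median 12.44) and from 10.93 to 12.20 (median 11.64), with a difference of 0.77 ± 0.26 (adjusted p = 0.0486). Rplp0 kept its call when any 1 pool was left out, whereas Rplp2 lost it in 9 of 14 such fits.

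Rpl11, which together with Rpl5 holds the p53 regulator Mdm2 in check when ribosome assembly fails, ranged from 11.48 to 12.38 in the fetal and from 11.01 to 11.89 in the later pools (medians 11.68 and 11.47). The ranges overlapped, and the difference of 0.32 ± 0.17 did not pass (adjusted p = 0.194). Rpl38, known for its part in the translation of Hox messages, ranged from 12.22 to 13.06 and from 11.58 to 12.58 (medians 12.60 and 12.24). Its difference was 0.45 ± 0.17 (adjusted p = 0.0798). Rpl35 and Rpl8 were called, with differences of 0.77 ± 0.20 and 0.78 ± 0.20 (adjusted p = 0.0147 and 0.0149).

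The dimly measured genes held both the widest and the narrowest differences. Rpl12, at the base of the stalk, ranged from 5.95 to 8.54 in the fetal pools (median 7.49) and from 4.97 to 6.22 in the later pools (median 5.38), and only E18.5 overlapped. Its difference was 1.95 ± 0.35 (adjusted p = 0.00249, limma). Rpl14 differed by 1.54 ± 0.46 (adjusted p = 0.03) and Rps25, a protein that viral internal ribosome entry sites depend on, by 1.27 ± 0.34 (adjusted p = 0.0187). Rpl27a (-0.08 ± 0.06), Rps27 (0.01 ± 0.10) and Rpl39 (0.14 ± 0.09), a protein of the exit tunnel, had differences near 0 that were not called. The Rpl27a and Rps27 sets read at most 5.34 and 6.25 at any stage.

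**Figure D3:**
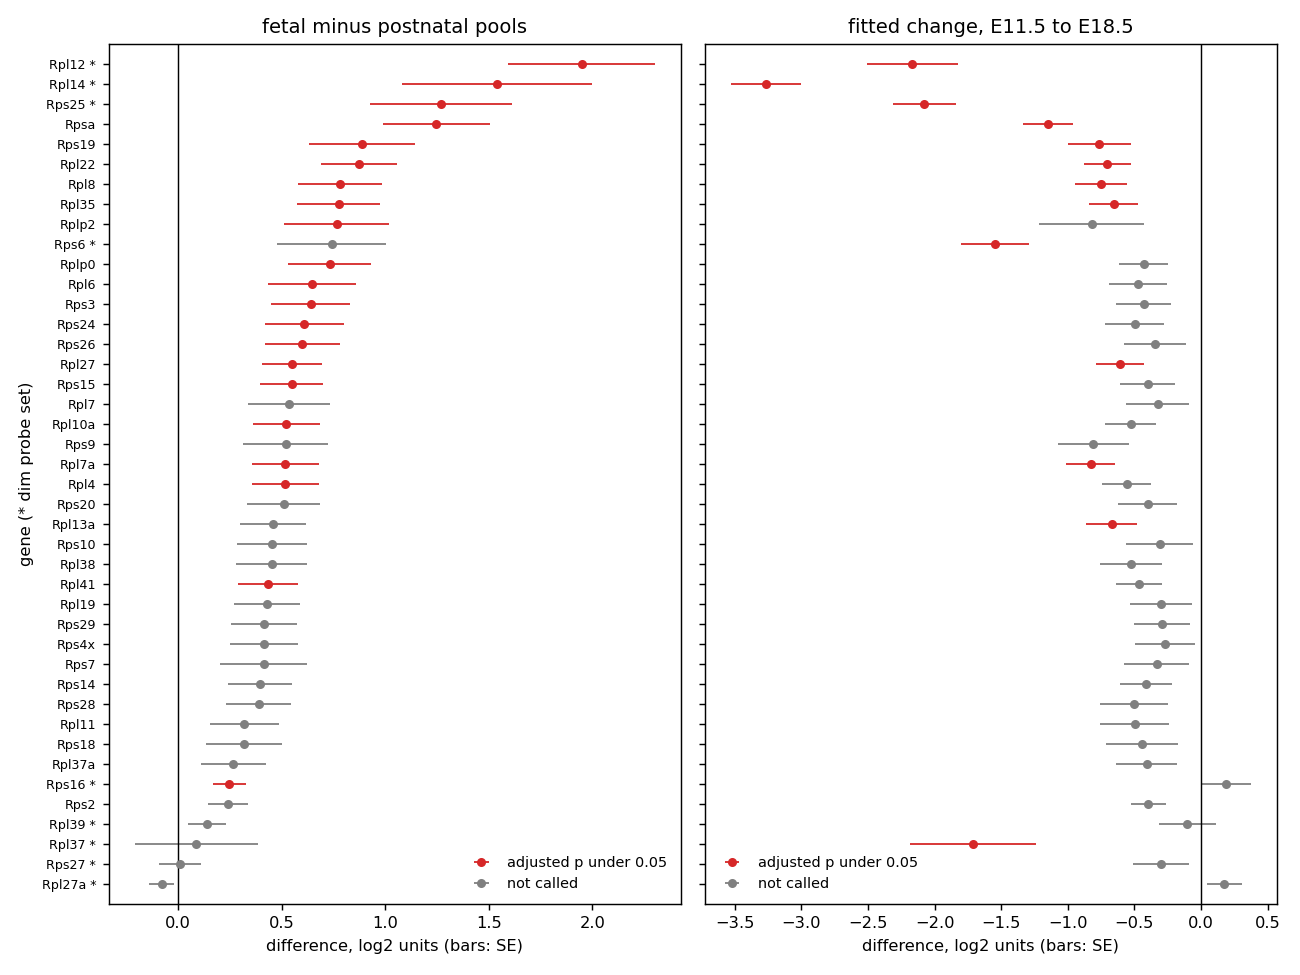
Points give the difference for each of the 42 genes in log2 units and bars its standard error: fetal minus later pools in the left panel and the fitted change from E11.5 to E18.5 in the right panel. Red points have an adjusted p under 0.05 (21 genes on the left, 13 on the right), and 41 of 42 points on the left lie above 0. Asterisks mark the dimly measured genes.

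Of the 21 genes called higher in the fetal pools, 8 kept the call when any 1 pool was left out: Rpl8, Rpl12, Rpl22, Rpl27, Rpl35, Rplp0, Rps25 and Rpsa. The number called was lowest, at 8, without day 21 or without the adult, and 9 without day 14, 10 without E14.5, 11 without E12.5 and 13 without E13.5. Over all genes the calls fell as well, from 1787 higher with all pools to 1154 without day 21, 1184 without the adult and 1162 without day 14. They were 1267 without E14.5, 1332 without E12.5 and 1330 without E13.5. When the arrays were set level on the housekeeping list, 14 genes were called and the median difference was 0.31, against -0.22 over all genes. That scaling moved the whole-array split to 1333 genes higher and 2369 lower (36% higher, against 48.3% in the main analysis).

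The fetal course asks which members changed between E11.5 and E18.5, as a straight line through the 8 fetal pools. With limma, 13 of the 42 genes fell and none rose, against 19% of all genes called lower and 10.7% called higher. At unadjusted p under 0.05, 19 fell and 0 rose. The fitted change had a median of -0.49, against 0.04 over all genes, with 40 of 42 below 0. When genes with a mean log2 level under 6 were left out, the medians were -0.50 for the 39 members kept and -0.23 over all genes kept. A fall of at least 1 log2 unit was called in 6 members, against 12% of all genes, and a rise of that size in none, against 4.4%. Without E18.5 the number called lower was 34 and the median -0.79. Without E11.5 the number was 5, without E12.5 6, without E17.5 7 and without E16.5 8. Over all genes 3452 were called lower with all fetal pools and 3462 without E18.5. That count was 2792 without E11.5, 2638 without E12.5, 3135 without E17.5 and 2938 without E16.5.

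Rpsa read 13.25, 13.21, 12.67, 12.93, 12.56, 12.32, 12.07 and 12.30 from E11.5 to E18.5, with the first 2 pools the highest and the last 3 the lowest. Its fitted change was -1.15 ± 0.18 (adjusted p = 0.00354, limma), the largest among the brightly measured genes. Rps19 read 12.66, 12.32, 11.74, 12.05, 11.91, 11.74, 11.60 and 11.88, with a fitted change of -0.76 ± 0.24 (adjusted p = 0.044). Most of its decline was complete by E13.5. The other brightly measured genes called lower were Rpl7a (-0.83), Rpl8 (-0.75), Rpl13a (-0.67), Rpl22 (-0.70), Rpl27 (-0.61) and Rpl35 (-0.65).

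The 5 dimly measured genes called lower had the steepest courses. Rpl14 read 8.62, 7.82, 7.01, 7.25, 6.27, 5.95, 5.81 and 5.06, with a fitted change of -3.27 ± 0.27 (adjusted p = 0.00102, limma), the highest pool first and the lowest last. Rpl12 changed by -2.17 ± 0.34, Rps25 by -2.08 ± 0.24, Rpl37 by -1.71 ± 0.47 and Rps6, the target of the S6 kinases downstream of mTOR, by -1.55 ± 0.26. Rps6 read 8.94 at E11.5 and 6.99 at E18.5. The smallest changes were -0.10 ± 0.21 for Rpl39 and 0.17 ± 0.13 for Rpl27a, neither called. Rpl12, Rpl14, Rps6, Rps25 and Rpsa kept their calls when any 1 fetal pool was left out.

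The direction of the fetal course depended on what the arrays were set level on. With the housekeeping list as the reference, the median over the 42 genes was 0.15, with 28 genes above 0, 3 called higher and 6 lower. Over all genes the median was then 0.68, and 87.1% of the calls were higher. The housekeeping list itself had a median fitted change of -0.92, with 6 of its 13 genes called lower and 1 higher. Rpsa was called lower under both scalings, at -0.51 (adjusted p = 0.0351) on the housekeeping scale. The gap between the median of the 42 genes and that of all genes was -0.52 under both scalings, since a shift of a whole array moves both alike, but it was -0.27 when dimly measured genes were left out.

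The later course asks which members changed between birth and 18 weeks, as a straight line through the 6 later pools against log2(days after birth + 1). With limma, no member and none of the 18193 genes passed an adjusted p under 0.05 (0% of all genes in either direction). At unadjusted p under 0.05, 35 members were lower and 0 higher. All 42 fitted changes were below 0, with a median of -1.03, against 0.05 over all genes. The lowest adjusted p of a member was 0.178.

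Rps19 had the largest fitted change after birth, at -1.77 ± 0.35 (adjusted p = 0.178): it read 11.90, 11.57, 11.54, 10.79, 10.44 and 10.36 from birth to the adult, lower at each later stage. Rpsa changed by -1.57 ± 0.33, Rpl6 by -1.47 ± 0.34, Rplp0 by -1.43 ± 0.32 and Rplp2 by -1.43 ± 0.30, all with an adjusted p of 0.178. Rps2 changed by -0.49 ± 0.17 (adjusted p = 0.281), and it read 12.68, 12.58, 12.62, 12.60, 12.53 and 12.15. Only its adult mean stood apart, and mostly through array 1: the adult arrays read 11.84 and 12.46, against 12.54 and 12.53 at day 21. The smallest fitted changes were -0.02 ± 0.14 for both Rpl27a and Rps16, and neither was called. The median over the 42 genes was -1.54 with array 1 of each stage alone and -0.56 with array 2 alone, and -0.62 with the housekeeping scaling.

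Within the family, some genes departed from the common course. When each array was set level on its median ribosomal protein gene, an alternative added after the values were seen, 3 members were higher in the fetal pools (Rpl12, Rpl14 and Rpsa) and 5 lower (Rps2, Rpl37a, Rpl27a, Rpl39 and Rps27). On that scale 3.32% of all genes were called higher and 71.4% lower. Rpsa stood 0.60 ± 0.19 above the median member (adjusted p = 0.0111), Rps2 0.41 ± 0.17 below it, a difference of -0.41 (adjusted p = 0.0405), and Rpl37a differed by -0.38 ± 0.16 (adjusted p = 0.0346). In the fetal course on the same scale 6 members were called lower (Rpl12, Rpl14, Rpl37, Rps6, Rps25 and Rpsa) and 1 higher (Rpl27a), where 7.96% of all genes were called lower and 33% higher. Rpsa changed by -0.62 ± 0.22 (adjusted p = 0.0387). After birth 5 dimly measured members (Rpl27a, Rpl37, Rpl39, Rps16 and Rps27) were higher relative to the median member and none lower, against 70.8% and 1.68% of all genes. Before this centring their fitted changes after birth were -0.02, -0.03, -0.10, -0.02 and -0.07. A level set comes out higher where the median member falls, so these calls show no rise. The calls of Rpl27a, Rpl39 and Rps27 between fetal and later pools share this limit. Rpl27a and Rps16 read at most 5.34 and 4.90, below the median of the arrays.

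Several probe sets of a gene usually gave the same direction. Of the 42 genes 22 had more than 1 set, and the set used carried a suffix that marks possible hybridisation to other transcripts in 29 genes. The 5 bright sets of Rpl35 gave differences between fetal and later pools of 0.68 to 0.87. The 4 sets of Rpl13a gave 0.46, 0.48, 0.91 and 2.04, all above 0. For Rps3 the set used gave 0.64, while its sets without such a suffix gave -0.17 (mean 8.12) and 1.34 (mean 7.04). In Rps4x another set gave -0.33 (mean 5.62), against 0.42 with the set used. In Rps6 another set gave -0.03 (mean 4.88), against 0.74 with the set used. Processed pseudogenes of ribosomal protein genes are numerous, and how far they contribute to these sets was not tested.

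The genes that build, start and extend the work of ribosomes were described over lists. Of 65 ribosome assembly genes (nucleolar and processing factors), 20 were called higher in the fetal pools and none lower, with a median difference of 0.66. In the fetal course 56 of the 65 fell and none rose, with a median of -1.58, against 13 of the 42 ribosomal protein genes and a median of -0.49. Over all genes 9.82% were called higher and 10.5% lower in the fetal pools. In the fetal course 19% of all genes fell and 10.7% rose. Dkc1, the pseudouridine synthase of ribosomal RNA, was higher in the fetal pools by 2.98 ± 0.67 (adjusted p = 0.0078), Nolc1 by 1.85 ± 0.47 and Tsr1 by 1.84 ± 0.54. The GTPase Bms1 fell by 3.18 ± 0.50 over the fetal course. Sbds (-0.01 ± 0.10) and Riok1 (0.01 ± 0.10) were not called between fetal and later pools.

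Of 28 initiation factors, 7 were called higher in the fetal pools and 15 fell in the fetal course, with none in the opposite direction (medians 0.51 and -1.01). Eif5b, which joins the subunits, was higher by 1.35 ± 0.36, and Eif4e, the cap-binding protein, by 0.91 ± 0.22. Of 11 elongation and associated factors, 2 were called higher (Pabpc1 by 1.07 ± 0.24 and Eef1d by 0.85 ± 0.21) and 4 fell in the fetal course. For both lists the shares over all genes were 9.82% higher in the fetal pools and 19% lower in the fetal course. Eef1a1, the factor that delivers the transfer RNAs, differed by 0.03 ± 0.10 and was not called.

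The mitochondrial ribosome has its own proteins. Of its 76 genes 58 fell in the fetal course and none rose (median -1.13), but between fetal and later pools none was called higher and 2 were lower, Mrpl27 (-0.98 ± 0.22) and Mrps31 (-0.53 ± 0.13), with a median of 0.08. Over all genes 19% fell and 10.7% rose in the fetal course, and 9.82% were higher and 10.5% lower in the fetal pools. From E17.5 to day 7 the median change in the stage means was 0.71 for the mitochondrial list, with 70 of 76 genes higher, and 0.12 for the brightly measured cytosolic genes. Day 7 has array 1 only, which usually read higher than array 2. With array 1 of both stages the cytosolic median was -0.0035, and the mitochondrial list was not described in that way. From day 7 to the adult the medians were -0.63 and -0.90. For ribosome assembly the same spans gave -0.18 and -0.24, so in that list most of the decline lay before E17.5, at -1.39. The differences between lists were not tested.

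**Figure D4:**
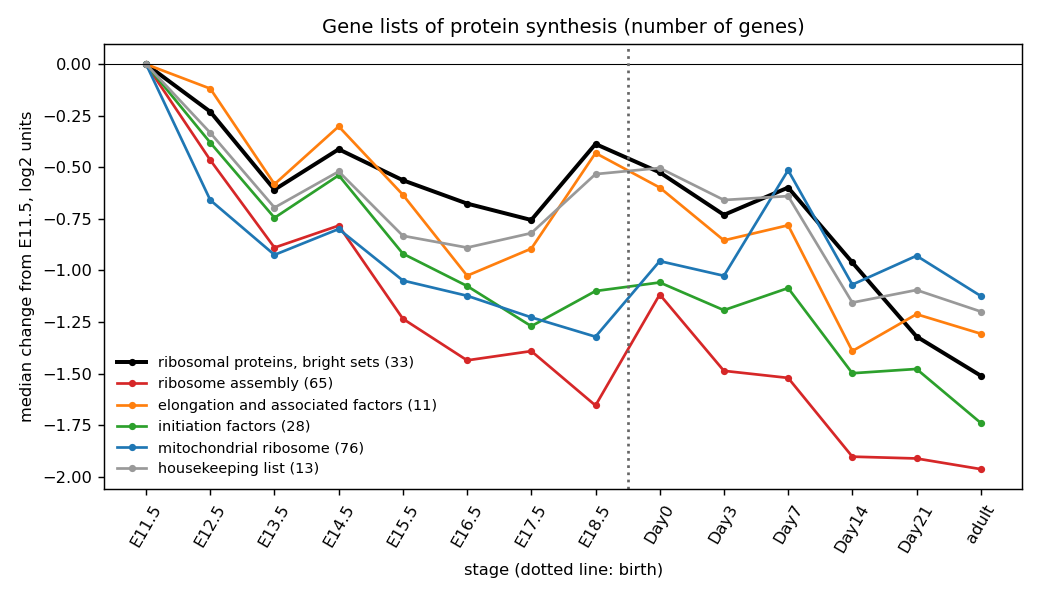
Lines give the median log2 change from E11.5 of each gene list by stage, with the number of genes in brackets. The ribosome assembly list reaches -1.39 at E17.5, the bright ribosomal protein genes -0.76, and both are lowest in the adult, at -1.96 and -1.51. The housekeeping list also declines, to -1.20 in the adult.

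Of 22 genes that control growth, translation or ribosome production, 6 were called higher in the fetal pools and 3 lower, where 9.82% and 10.5% of all genes were. In the fetal course 2 rose and 7 fell, where 10.7% and 19% of all genes did. Myc, a transcription factor that drives ribosome production, was higher in the fetal pools by 1.62 ± 0.46 (adjusted p = 0.023) and changed by -2.34 ± 0.45 over the fetal course. Larp1 was higher by 0.80 ± 0.26 and changed by -1.53 ± 0.32. Eef2k, the kinase that halts elongation, was higher by 1.56 ± 0.18, whereas Deptor, an inhibitor of mTOR, was lower (-1.26 ± 0.35), as was Pdcd4, an inhibitor of Eif4a (-0.76 ± 0.18). Mtor itself differed by -0.06 ± 0.05 and was not called.

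Some relatives lie outside the family by name. Fau, which encodes a ribosomal protein fused to a ubiquitin-like protein, read 12.32 at E11.5 and 11.06 in the adult and changed by -0.79 ± 0.21 over the fetal course (adjusted p = 0.023). Of 5 paralogs, Rpl7l1 was higher in the fetal pools by 1.03 ± 0.30 (adjusted p = 0.027), and 2 fell in the fetal course, Rpl7l1 (-1.98 ± 0.31) and Rpl39l (-0.44 ± 0.11). Over all genes 9.82% were called higher in the fetal pools and 19% fell in the fetal course, and a list this short is not set apart from those shares.

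The cell make-up of the liver changed over the same stages. Of 9 erythroid markers 8 were called higher in the fetal pools, and their summed intensity was 9784 to 27475 in the fetal and 1268 to 13865 in the later pools. The median log2 level of that list was 10.12 at E11.5 and 11.51 at E15.5, while the ribosomal protein genes were lower at E15.5 than at E11.5, and it was 7.74 at day 7 and 6.87 in the adult. Of 11 hepatocyte markers 10 were lower in the fetal pools, with a median level of 8.56 at E11.5 and 12.79 in the adult. Over all genes 9.82% were called higher and 10.5% lower in the fetal pools. In the fetal course, where 10.7% of all genes rose and the ribosomal protein genes fell, all 7 macrophage markers rose (median 2.08). So did 5 of 6 granulocyte markers (median 5.70). From day 7 to the adult the macrophage and granulocyte lists were lower with the ribosomal protein genes, by medians of -1.82 and -3.94. Their summed intensities in the fetal pools were 1056 to 4497 and 1337 to 18513, and in the later pools 2655 to 10115 and 624.7 to 15822. The 8 skeletal muscle markers had a median of 6.64 at E18.5 and at most 5.62 at any other stage. The share of these cell types in the ribosomal protein values was not tested, and in whole-liver RNA fewer cells of a type and less message per cell cannot be told apart.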

How the data were processed

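Livers of 14 stages were hybridised to 25 Affymetrix mouse arrays. The authors deposited linear intensities of 45101 probe sets per array, and the submitters' processing notes name RMA. The values ran from 12.6 to 25175 and were log2-transformed here; the planned tests had assumed log2 values. Symbols came from the platform annotation: 34945 probe sets had 1 symbol, 932 several and 9224 none, and 64 control sets were left out. Technical repeats were averaged, so each stage counted once. limma 3.58.1 (R 4.3.3) was fitted over all 18193 genes with Benjamini-Hochberg adjustment and a threshold of 0.05. The steps were tested on simulated data. The number of arrays limits the precision. Members and lists were chosen with earlier results of these data known. Genes named were, per comparison, up to 6 largest called changes and the 2 smallest, the widest and narrowest courses, a fixed set of well-known members, and up to 3 called genes per direction and 2 others of each list. Alternatives covered scaling, probe set choice, dim genes, single arrays, the replicate block and pools left out.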

Additional observations from a re-analysis of the deposited data

Results flagged for a closer look

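Dixon's test on the fetal and the later pools of each gene and of the median over the 42 genes marked 2 of 86 groups, where chance marks about 1 in 20. Rps15 stood apart at E11.5 among the fetal pools, at 12.83 with the nearest pool at 12.42. Rps2 stood apart in the adult among the later pools, at 12.15 with the nearest at 12.53. The 2 adult arrays of Rps2 read 11.84 and 12.46.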

How the results depend on the processing

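Leaving out 1 pool at a time gave 8 to 29 members higher in the fetal pools (median 0.39 to 0.59), 5 to 34 lower in the fetal course (median -0.79 to -0.30), 0 lower after birth (median -1.16 to -0.97) and 39 to 40 varying with stage. The number higher in the fetal pools was 35 after quantile normalisation, 11 with array 1 of each stage alone, 9 without the stages of 1 array and 12 of 22 with specific probe sets, where 14 of 22 varied with stage. Over all genes 2205, 1564 and 1596 were called higher under the first 3 settings, against 1787 in the main analysis. With specific probe sets, which not every gene has, 1469 were. The number lower in the fetal course was 34 (median -0.79) without the stages of 1 array or over E11.5 to E17.5 alone, and 30 (median -0.80) with array 2 alone, added after seeing the data. Over all genes 3462 and 3302 were called lower there, against 3452 in the main analysis. With the housekeeping scaling the fetal course had 3 members higher, 6 lower and a median of 0.15, Rpl27 turned to 0.03 and Rpl39 to 0.54, and the median after birth was -0.62. That median was -0.28 with specific probe sets, -1.54 with array 1 alone and -0.56 with array 2 alone. With the brightest specific set of each gene, Rps3 turned to -0.17 between fetal and later pools, and Rpl35 to 0.38 in the fetal course. The cause was not tested. A further fit used all arrays, with the stage as a replicate block and the repeat number as a covariate. In it 33 members were lower in the fetal course (23.3% of all genes) and 8 after birth (4.42% of all genes). In the other fits the repeat numbers were not treated as pairing. Repeat differences of 2 stages correlated at -0.57 to 0.73, 38 of 55 pairs were over 0.1, and 20 of 22 arrays matched their own number best. Stages of 1 array and dim probe sets limit single steps and single genes most.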
